A study of Mus musculus with 48 samples.

Results

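The 36 genes described here are 22 glutathione transferases and 14 genes of the NRF2 system, taken by symbol from a given list. All 36 symbols were found among the 30055 gene symbols of the count table. The transferases comprise 4 alpha, 7 mu, 2 pi and 3 theta class genes, Gstk1, Gsto1, Gstz1 and 3 membrane-bound genes (Mgst1, Mgst2, Mgst3). The NRF2 system comprises the factor itself (Nfe2l2), its inhibitor Keap1 and 12 genes known as targets of the factor in mice or human cells.

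C57BL6/J mice of both sexes from Charles River were switched at 8 weeks of age to a diet with 45% of its calories as fat (HFD) or were kept on a regular diet (RD, Teklad standard chow), and 2 cohorts were killed after 2 or 12 weeks. PolyA RNA of liver and of visceral white adipose tissue (visceral fat) was sequenced in 48 libraries, which form 16 groups of 3 by tissue, sex (F, M), diet and weeks. All groups share the strain, and the labels name no engineered allele and no other treatment. Time on the diet, age and cohort cannot be told apart, so times were not compared with each other. The labels number the libraries within a group but say neither how the animals were housed nor which visceral depot was taken, so p-values measure the spread between these libraries.

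Glutathione transferases join glutathione to reactive electrophiles such as drugs, carcinogens and the aldehydes of lipid peroxidation, and the products leave the cell through ABC transporters. NRF2 is a bZIP factor that KEAP1 holds in the cytoplasm and sends to degradation; oxidants and electrophiles modify KEAP1, and NRF2 then binds antioxidant response elements with small MAF proteins. Its known targets make glutathione, recycle thiols and carry out detoxification. The liver is the main site of this metabolism, and in rodents several hepatic transferases are known to differ between the sexes.

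The depth, summed over genes in expected counts, was 50.9 to 80.1 M in the liver libraries and 44.7 to 105.4 M in those of visceral fat (M, mega). Levels are CPM, expected counts per mega-count of library size scaled within a tissue. Changes are log2 fold changes ± SE, HFD over RD or F over M, and a gene is called, and said to rise, fall or be higher or lower, at a Benjamini-Hochberg adjusted p under 0.05 from edgeR over all genes tested in that tissue. The summed level of 8 hepatocyte markers was 73802 to 133601 CPM in liver and 40.0 to 1233 CPM in visceral fat. The sum of 8 adipocyte markers was 8473 to 34894 CPM in visceral fat and 33.9 to 95.5 CPM in liver. In bulk tissue, fewer cells of a type and less RNA per cell cannot be told apart. Overlap between the libraries of compared groups is given as a description. Within a tissue the share of all genes without overlap is not given, so a separation is not counted as a call.

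Some visceral fat libraries stood apart in RNA of other tissues. The sum of 11 epididymis markers, which mark the duct beside the male pad, at 12 weeks was 3772 to 6017 CPM in RD males and 1.69 to 8.19 CPM in males on HFD. Crisp1, a secreted protein of the epididymis, stood at 3050.1, 3022 and 5453 CPM in those RD males and at 6.30, 1.89 and 1.14 CPM in their HFD counterparts. At 2 weeks it stood at 970.3, 0.586 and 2682 CPM in RD males and at 3.05, 6500.1 and 6.29 CPM in HFD males, so RD males 6 and 8 and HFD male 13 exceeded 100 CPM. In the females the sum of the 11 markers did not exceed 2.75 CPM, and 10 or 11 of the 11 stayed under 1 CPM in every group. The library of HFD female 1 at 2 weeks held 298 CPM of the epithelial cadherin Cdh1 and 879.8 CPM of adiponectin (Adipoq), against 0.308 and 0.447 CPM of Cdh1 and 2906 and 3163 CPM of Adipoq in its group. In liver, HFD female 5 at 2 weeks was the highest of the 24 libraries for 8 of the 36 genes (Gsta4, Gstm5, Gstm7, Gstt1, Gstt2, Gstz1, Hmox1, Cbr3) and the lowest for 5 (Mgst1, Gclm, Gsr, Txnrd1, Slc7a11). It also held the highest sum of 10 macrophage markers in liver, 855 CPM, against 439 and 480.4 CPM in its group. Liver HFD male 13 at 2 weeks was below both other libraries of its group for 24 of the 36 genes, and held the most Col1a1 (27.7 CPM, against 4.84 and 8.62 CPM in its group) and Fgb (16168 CPM, against 8032 and 10964 CPM) of the 24 liver libraries. These are single markers, and the sums of their lists did not peak in its group. The 8 hepatocyte markers summed to 73802 to 82272 CPM there, the lowest of the liver groups. The 6 fibroblast and stellate cell markers summed to 235 to 352 CPM there and to as much as 374 CPM in HFD females at 2 weeks. Results by diet or sex that rest on the libraries named in this paragraph are given with and without them where another library remains.

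The 7 mu class genes lie side by side on chromosome 3, chr3:107895821-108044894, within 149.1 kb (GRCm38, GENCODE M21). Gsta4 (chr9:78182774-78209349), Gsta1 and Gsta2 lie on chromosome 9, the theta class genes on chromosome 10 and Gstp1 (chr19:4035407-4037985) and Gstp2 on chromosome 19. Near-identical family members can trade reads in transcript-based counting. Of the 31-base stretches of its transcripts, Gsta1 shares 92.9% with other genes, Gsta2 60.7%, Gstp2 60.3%, Gstp1 38.5%, Gstm3 37.7% and Gstm1 28.8%. The levels of these 6 genes are uncertain for this reason, by an amount that the shares do not give. Gstm4 shares 3.3% and Gstm7 2.6%, while Gsta4, Gsto1, Mgst1, Nqo1, Hmox1, Gclc, Gsr, Txnrd1 and Nfe2l2 share none.

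Promoters of 31 of the 36 genes were found in the RefSeq table (GRCm38.p6, 250 bases before to 50 bases after each annotated start). They were searched on both strands for TGACNNNGC, the core of the antioxidant response element to which NRF2 binds. The core was found for 10 of the 31 genes (32.3%): Gsta3, Gstm5, Gstm7, Mgst1, Gclm, Txnrd1, Srxn1, Nfe2l2, Ugdh and Abcc4. It was found for 3781 of all 27025 genes of the table (13.99%), and a match in these letters is a description of the window, not a site. The bases upstream of the start are shown for 4 genes that were called by diet in liver or visceral fat, with any match in capitals. Ugdh holds 2 matches and Gsta3 holds 1, while Gstm3 and Ephx1 hold none in the window.
Gstm3, chr3:107969175-107969424, strand -: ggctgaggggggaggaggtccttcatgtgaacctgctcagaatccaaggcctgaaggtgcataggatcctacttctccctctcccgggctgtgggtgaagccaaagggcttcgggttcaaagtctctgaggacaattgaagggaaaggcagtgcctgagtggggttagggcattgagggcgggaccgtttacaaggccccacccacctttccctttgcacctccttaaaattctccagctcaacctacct
Ugdh, chr5:65435843-65436092, strand -: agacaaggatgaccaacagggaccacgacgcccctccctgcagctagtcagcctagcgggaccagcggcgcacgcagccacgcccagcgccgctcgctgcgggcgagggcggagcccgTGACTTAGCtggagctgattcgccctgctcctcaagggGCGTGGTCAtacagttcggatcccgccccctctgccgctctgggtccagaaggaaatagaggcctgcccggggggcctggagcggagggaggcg
Gsta3, chr1:21240335-21240584, strand +: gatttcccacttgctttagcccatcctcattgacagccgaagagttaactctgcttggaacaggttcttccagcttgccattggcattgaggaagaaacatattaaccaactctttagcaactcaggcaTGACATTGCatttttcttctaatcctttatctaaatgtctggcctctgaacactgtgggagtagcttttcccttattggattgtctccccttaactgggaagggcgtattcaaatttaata
Ephx1, chr1:181017570-181017819, strand -: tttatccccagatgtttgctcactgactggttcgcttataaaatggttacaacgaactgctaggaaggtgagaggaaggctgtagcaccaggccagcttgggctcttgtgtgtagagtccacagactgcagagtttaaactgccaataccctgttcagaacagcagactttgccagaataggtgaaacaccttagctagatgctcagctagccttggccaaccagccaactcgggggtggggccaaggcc

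Both tissues expressed most of the genes. In CPM of total counts, 5 of the 36 genes were higher in each of the 24 liver libraries than in any visceral fat library, 4 were lower and 27 overlapped. All 24 visceral fat libraries were used, and the split was not made without the males rich in Crisp1. In visceral fat Gsta2 had a median of 0.0637 CPM but reached 20.4 CPM in RD male 4 at 12 weeks. Gstm6 had a median of 6.53 CPM but reached 118 CPM in HFD male 13 at 2 weeks. Among all 16842 genes that reached 1 CPM, 4.65% were higher in liver and 35.9% lower without overlap. The 5 genes higher in liver were Gsta3, Gstm3, Gstk1 and both subunits of glutamate-cysteine ligase, the first enzyme of glutathione synthesis (Gclc, the catalytic subunit, and Gclm, the modifier). Gstm3 ran from 6.81 to 76.7 CPM in liver and from 0 to 0.738 CPM in visceral fat. Gclc ran from 134 to 471 CPM in liver and from 25.0 to 50.4 CPM in visceral fat. The 4 genes lower in liver were Gstm5, Mgst2, Mgst3 and Cbr3, a carbonyl reductase. Mgst3 ran from 1.91 to 20.5 CPM in liver and from 42.0 to 171 CPM in visceral fat. Nfe2l2 and Keap1 overlapped between the tissues, Nfe2l2 at 25.1 to 83.3 and 50.9 to 146 CPM and Keap1 at 35.4 to 57.7 and 47.3 to 64.0 CPM.

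The first question was what the high-fat diet did to these genes in liver. Averaged over both sexes and times, 6 of the 36 genes fell on HFD and none rose: 4 mu class transferases (Gstm1, Gstm2, Gstm3, Gstm4), the alpha class gene Gsta2 and Ugdh, which makes UDP-glucuronate for glucuronidation. Of all 15897 genes tested, 1.34% were called in this contrast, 0.824% of all genes as lower and 0.516% as higher. The median log2 fold change was -0.21 over the 36 genes, 31 of them negative, and 0.00 over all genes. Of the 22 transferases 19 had a negative log2 fold change, with a range of -1.30 to 0.23 and a median of -0.34, and of the 14 NRF2-system genes 12 had a negative log2 fold change, with a range of -0.50 to 0.24 and a median of -0.18. The calls of Gstm1, Gstm2, Gstm3 and Gstm4 held with each of the 24 libraries left out. That of Ugdh (-0.50 ± 0.12, adjusted p = 0.038) was lost in 18 of the 24 fits, at adjusted p of 0.0517 to 0.0802, and that of Gsta2 in 1, without HFD female 3 at 12 weeks (adjusted p = 0.0502).

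**Figure D1:**
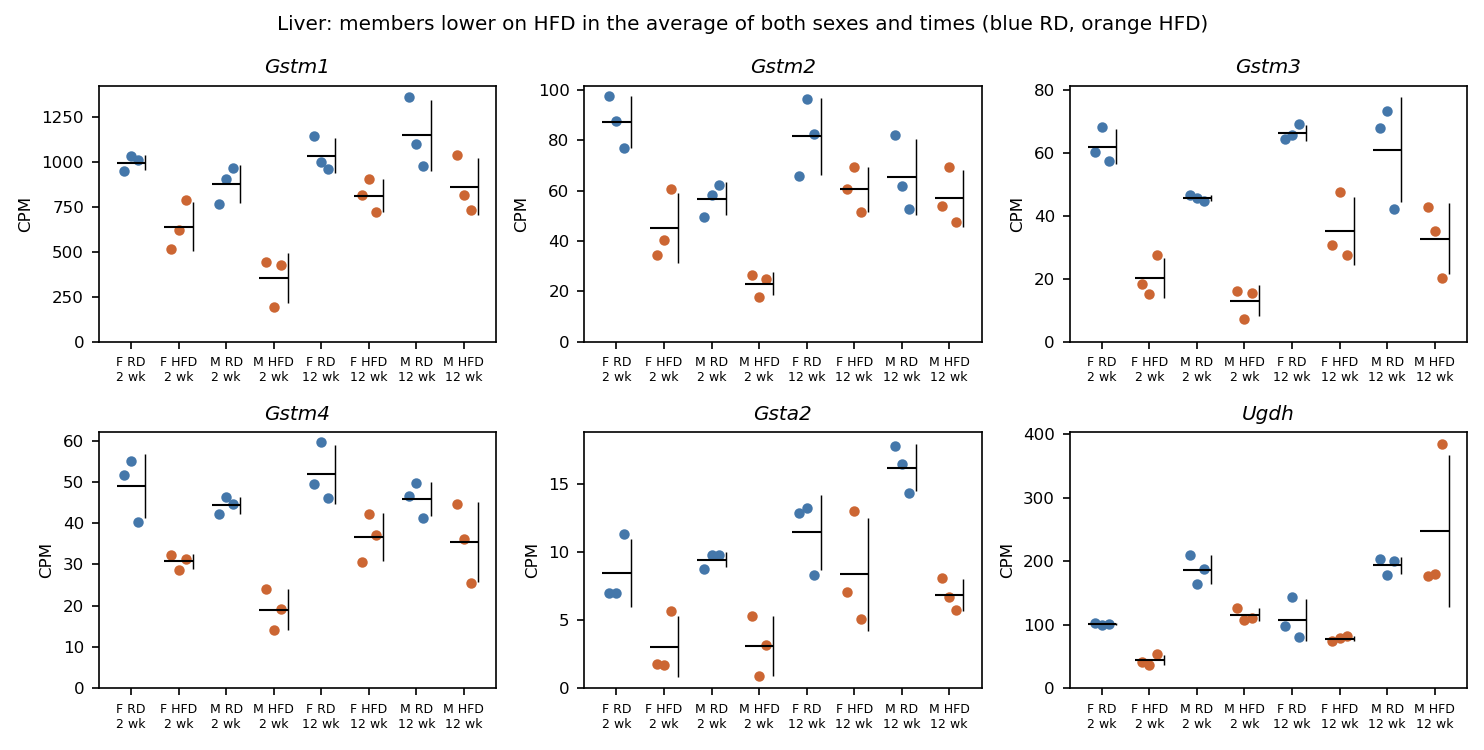
CPM of the 6 genes that fell on HFD in liver, by group (x axis; F and M, RD blue, HFD orange, 2 and 12 weeks); points are libraries, horizontal lines group means and vertical lines 1 SD (n = 3). Each HFD library at 2 weeks lies below the RD libraries of its sex for Gstm3, and HFD male 4 at 12 weeks stands above all others for Ugdh.

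Gstm3 had the largest change of the 6 in the averaged contrast. At 2 weeks it stood at 60.2, 68.2 and 57.4 CPM in RD females and at 18.2, 15.3 and 27.5 CPM in HFD females. In males it stood at 46.5, 45.6 and 44.6 CPM on RD and at 16.2, 7.32 and 15.6 CPM on HFD. No HFD library reached the RD libraries of its sex. It fell by diet in both sexes at 2 weeks, with -1.61 ± 0.30 (adjusted p = 0.026) in females and -1.81 ± 0.30 (adjusted p = 0.012) in males. At 12 weeks the females stood at 64.2, 65.6 and 69.0 CPM on RD and 30.6, 47.6 and 27.7 CPM on HFD, and the males at 67.8, 73.2 and 42.1 CPM on RD and 42.8, 35.2 and 20.4 CPM on HFD. The female groups did not overlap and the male groups did, and neither change was called, at -0.91 ± 0.30 (adjusted p = 1.0) and -0.90 ± 0.30 (adjusted p = 0.18).

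Gstm1, Gstm2 and Gstm4, of the same cluster, fell in males at 2 weeks. Gstm1, a broad-range conjugating enzyme, stood at 764, 904 and 967 CPM in RD males and at 444, 196 and 428 CPM in HFD males, and changed by -1.30 ± 0.23 (adjusted p = 0.017). Gstm2 stood at 49.5, 58.3 and 62.3 CPM and at 26.6, 17.9 and 24.8 CPM, a change of -1.30 ± 0.22 (adjusted p = 0.012). Gstm4 stood at 42.2, 46.3 and 44.5 CPM and at 24.1, 14.0 and 19.1 CPM, a change of -1.22 ± 0.20 (adjusted p = 0.0081). The diets did not overlap for any of the 3, and HFD male 13 was the lowest library each time. In females at 2 weeks the diets also did not overlap for Gstm1 (949.5, 1031 and 1009 CPM on RD, 516, 621 and 786 CPM on HFD), but -0.64 ± 0.23 was not called (adjusted p = 0.34). The summed level of 8 hepatocyte markers moved with this comparison, at 87552 to 107954 CPM in RD males and 73802 to 82272 CPM in HFD males without overlap, although none of the 8 was called; in females at 2 weeks it was 110026 to 129625 and 114749.5 to 133601 CPM. Its part in the fall of the mu class genes was not tested. Averaged over all groups, Gstm1 changed by -0.67 ± 0.11 (adjusted p = 0.0043), Gstm2 by -0.72 ± 0.11 (adjusted p = 0.0016) and Gstm4 by -0.69 ± 0.10 (adjusted p = 8.2e-04). Gstm5, Gstm6 and Gstm7, the other genes of the cluster, were not called by diet in liver in any of these contrasts.

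Of the alpha class, Gsta2 was called in the averaged contrast alone (-1.19 ± 0.25, adjusted p = 0.02). It ranged from 6.99 to 17.8 CPM (median 10.6) in the 12 RD libraries and from 0.879 to 13.1 CPM (median 5.50) in the 12 HFD libraries. Gsta4, which handles the lipid peroxidation product 4-hydroxynonenal, ranged from 31.8 to 51.6 CPM (median 37.2) on RD and from 8.61 to 65.9 CPM (median 24.3) on HFD and was not called (-0.52 ± 0.16, adjusted p = 0.11). HFD female 5 at 2 weeks was the highest of the 24 libraries for Gsta4, and HFD male 13 at 2 weeks the lowest. Ugdh fell in HFD females at 2 weeks, from 103, 99.1 and 101 CPM on RD to 42.0, 37.3 and 53.5 CPM on HFD, a change of -1.19 ± 0.24 (adjusted p = 0.035).

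Within sex and time, 2 of the 36 genes fell in females at 2 weeks (Gstm3, Ugdh) against 0.220% of all genes, and 4 fell in males at 2 weeks against 0.220%. DESeq2 called 5 and 13. Fits of the compared groups alone called 0 in females (adjusted p of 0.0925 for Gstm3 and 0.0871 for Ugdh, which had 0.051 without a filter on low counts) and 2 in males, where Gstm3 had an adjusted p of 0.06 and Gstm1 of 0.137. Leaving out 1 library left 0 in females without HFD female 1, HFD female 2, RD female 1 or RD female 2, and 1 without RD female 4. Leaving out HFD male 13 left 1 in males, Gstm1, with adjusted p of 0.0579 for Gstm4, 0.092 for Gstm2 and 0.0601 for Gstm3. Without RD male 8 that of Gstm1 was 0.0707. Without HFD female 5 at 2 weeks, the averaged contrast called 13 genes in place of 6, the same 6 and Gsta1, Gsta3, Gsta4, Gstm6, Gstm7, Gstp1 and Gstp2. Over all genes, fits of this contrast without 1 library called 99 to 356 in place of 213.

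At 12 weeks none of the 36 genes was called by diet in either sex in liver. In females 0.00629% of all genes were called, 4 of the 36 had an unadjusted p under 0.05 and DESeq2 called 0. In males 1.12% of all genes were called (0.918% as lower), 9 of the 36 had an unadjusted p under 0.05 and DESeq2 called 1. The share of all genes at that unadjusted threshold is not given here, so the 4 and the 9 have no background to be read against. Leaving out HFD male 2 gave 1 call in males. The sex by diet interaction was called for none of the 36 and 0% of all genes at 2 weeks (5 with an unadjusted p under 0.05, 1 by DESeq2). At 12 weeks it was called for none and 0% of all genes (4 and 0). A difference in the liver diet response between the sexes was thus not detected at this depth and n.

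Neither NRF2 nor its inhibitor was called by diet in liver with edgeR. Nfe2l2 ranged from 43.5 to 78.3 CPM (median 63.6) in the RD libraries and from 27.0 to 101 CPM (median 60.1) in the HFD libraries, and -0.16 ± 0.08 was not called (adjusted p = 0.38). Keap1 ranged from 41.2 to 51.0 CPM (median 46.0) and from 40.6 to 49.9 CPM (median 43.8), a log2 fold change of -0.06 ± 0.05 (adjusted p = 0.64). The quinone reductase Nqo1, a standard target of NRF2, ranged from 2.63 to 10.1 CPM (median 6.40) and from 1.80 to 10.5 CPM (median 5.66), a log2 fold change of -0.20 ± 0.09 (adjusted p = 0.29). Gclc changed by -0.25 ± 0.13 (adjusted p = 0.4) and Gclm by -0.13 ± 0.08 (adjusted p = 0.52), both short of a call. Without HFD male 4 at 12 weeks, the highest library for Gclc, the change of Gclc was -0.38 and was called (adjusted p = 0.0458). Hmox1, heme oxygenase 1, ranged from 11.7 to 33.1 CPM (median 20.4) and from 9.56 to 36.4 CPM (median 21.0), a log2 fold change of -0.03 ± 0.15 (adjusted p = 0.97).

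For 3 of these genes a call by diet within a sex at 2 weeks depended on the tool. In males Nfe2l2 stood at 43.6, 43.5 and 50.3 CPM on RD and 30.2, 27.0 and 34.3 CPM on HFD, without overlap. Its change of -0.59 ± 0.16 was not called by edgeR (adjusted p = 0.12) but was by DESeq2 (-0.58, adjusted p = 0.0302). Gclc stood at 337, 409 and 311 CPM on RD and 223, 144 and 160.3 CPM on HFD in the same males, also without overlap (-1.0 ± 0.26, adjusted p = 0.1 by edgeR and 0.0182 by DESeq2). HFD male 13 was the lowest library for both genes. In females Nqo1 stood at 8.79, 9.86 and 8.75 CPM on RD and 6.41, 6.29 and 5.50 CPM on HFD, without overlap (-0.59 ± 0.17, adjusted p = 0.22 by edgeR and 0.0417 by DESeq2). In the males Nqo1 (2.98, 2.83 and 2.63 CPM on RD, 1.80, 1.99 and 2.33 CPM on HFD) and Keap1 (46.2, 45.8 and 48.8 CPM, 41.0, 43.8 and 44.5 CPM) also stood below RD without overlap. Hmox1 stood above RD without overlap, at 19.5, 22.0 and 21.2 CPM on RD and 24.1, 29.9 and 25.7 CPM on HFD. Nqo1, Keap1 and Hmox1 were not called by edgeR in these males. The share of all genes without overlap in these comparisons is not given here, so the separations have no background to be read against.

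One liver library, HFD male 4 at 12 weeks, stood above both other libraries of its group for 9 of the 14 genes of the NRF2 system and below both for 4 (Keap1, Gclm, Nqo1, Cbr3). Such a count was not particular to this library, since RD female 1 at 2 weeks stood above its group for 11 of the 14. HFD female 7 and RD male 4 at 12 weeks and RD male 8 at 2 weeks did so for 8 each. The levels of HFD male 4 follow. It held 121 CPM of Srxn1, sulfiredoxin, against 33.8 and 38.4 CPM in the other animals of the group. It held 579.9 CPM of Gclc against 276 and 227 CPM, and 385 CPM of Ugdh against 177 and 180.2 CPM. For Srxn1, Gclc, Ugdh, Txnrd1 (thioredoxin reductase 1, 137 CPM) and Nfe2l2 (101 CPM) it was the highest of all 24 liver libraries. Gsr, Slc7a11, Hmox1 and Abcc4 were above the group alone, Hmox1 at 16.9 CPM against 10.5 and 9.56 CPM. Nqo1 stood at 2.98 CPM against 5.81 and 4.36 CPM, and Gclm at 168 CPM against 186 and 183 CPM. The same library held the highest sum of 8 epithelial markers in liver, 833 CPM, against 290.1 to 369 CPM in RD males, and whether the 2 are related was not tested. This animal and these genes were picked after their values were seen.

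Of 49 further symbols of glutathione, thioredoxin and NRF2-pathway genes, 47 were in the table and 45 were tested in liver. None rose and 3 fell in the averaged diet contrast: Me1 (malic enzyme, -0.89 ± 0.15, adjusted p = 0.0059), G6pdx (glucose-6-phosphate dehydrogenase, -0.72 ± 0.13, adjusted p = 0.0059), both sources of NADPH, and Cyp1a2 (-0.49 ± 0.09, adjusted p = 0.0096), a cytochrome P450. The median log2 fold change was -0.02 over the list. Cyp1a2 fell in females at 2 weeks (-1.34 ± 0.18, adjusted p = 0.0018) and Me1 in males at 2 weeks (-2.13 ± 0.32, adjusted p = 0.0062).

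The second question was how far these genes differed between females and males in liver. Averaged over diets and times, 14 of the 36 genes were higher in females and 10 were lower, and of all genes 39.2% were called, 22.0% as higher and 17.2% as lower. Of the 22 transferases, 11 were higher and 4 lower. The median log2 fold change, F over M, was 0.23 over the 36 genes and 0.04 over all genes.

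**Figure D2:**
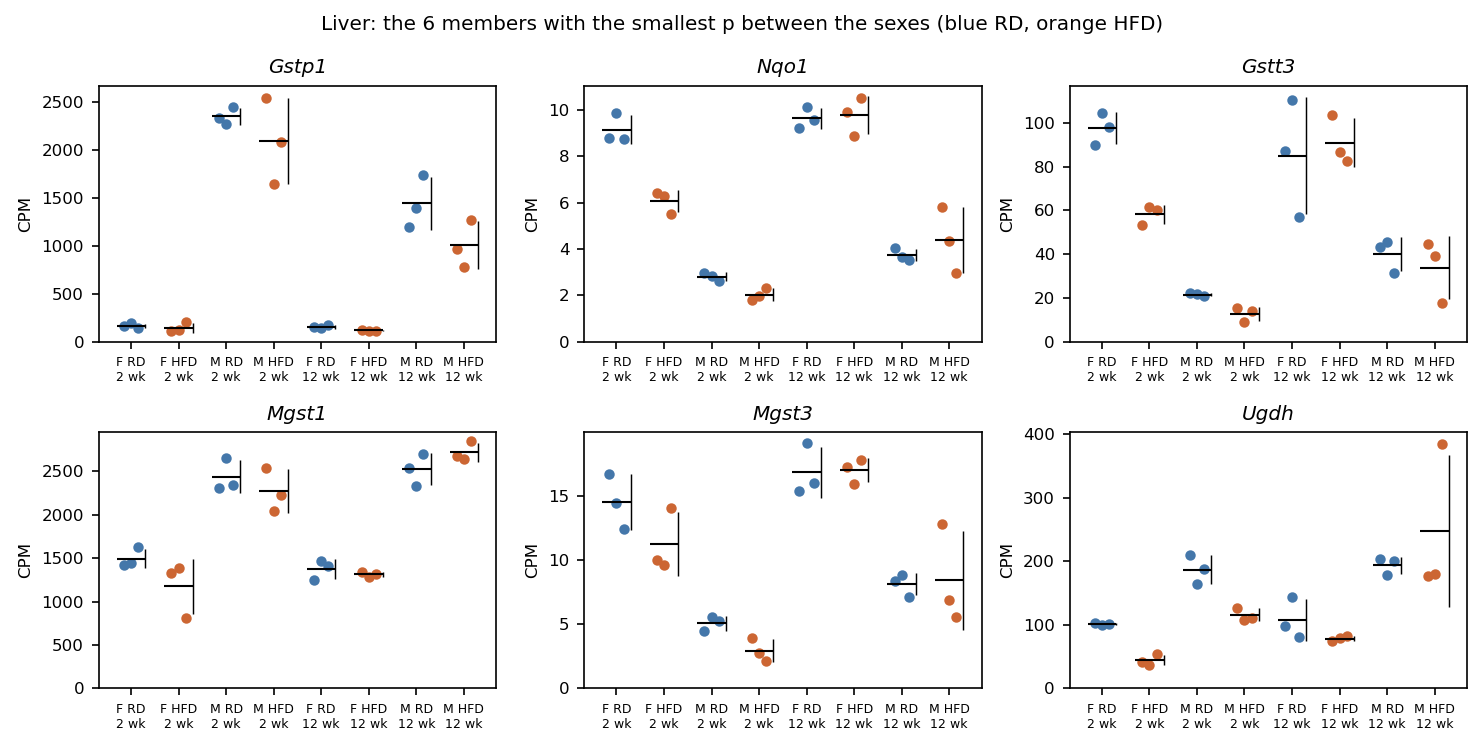
CPM of the 6 genes with the smallest p between the sexes in liver, by group (x axis; F and M, RD blue, HFD orange, 2 and 12 weeks); points are libraries, horizontal lines means and vertical lines 1 SD (n = 3). Every male library lies above every female library for Gstp1, and Nqo1 and Gstt3 are lower in males in each of the 4 pairs of groups.

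The pi class gave the largest difference. Gstp1, whose product also binds stress kinases, ranged from 111 to 203 CPM (median 142) in the 12 female libraries and from 785 to 2546 CPM (median 1695) in the 12 male libraries, without overlap. The log2 fold change was -3.50 ± 0.12 (adjusted p = 2.6e-15). It stayed near that size on both diets, at -3.83 ± 0.24 (RD) and -3.85 ± 0.24 (HFD) at 2 weeks and -3.22 ± 0.23 and -3.09 ± 0.23 at 12 weeks. Gstp2, which shares transcript sequence with Gstp1, was lower in females as well (-1.49 ± 0.17, adjusted p = 1.5e-06), at 0.946 to 3.18 CPM (median 1.85) against 2.84 to 12.2 CPM (median 5.15).

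The theta class and 2 of the membrane-bound transferases were higher in females. Gstt3 ranged from 53.3 to 111 CPM (median 86.8) in females and from 9.22 to 45.6 CPM (median 21.9) in males (1.72 ± 0.13, adjusted p = 4.1e-09). Gstt1 (0.60 ± 0.08, adjusted p = 6.7e-06) and Gstt2 (1.12 ± 0.39, adjusted p = 0.027) were higher in females too. For Gstt2 the sexes overlapped, at 4.17 to 14.5 CPM in females and 0.260 to 9.26 CPM in males. At 12 weeks RD male 2 held 0.260 CPM against 9.26 and 7.09 CPM in its group, and HFD male 4 held 0.446 CPM against 7.32 and 2.44 CPM. Mgst3 ranged from 9.62 to 19.1 CPM (median 15.6) and from 2.11 to 12.8 CPM (median 5.57), a log2 fold change of 1.38 ± 0.12 (adjusted p = 3.6e-08). Mgst1, the most studied of the microsomal enzymes, went the other way, at 812 to 1624 CPM (median 1365) in females and 2046 to 2846 CPM (median 2539) in males (-0.90 ± 0.08, adjusted p = 1.8e-08). Mgst2 was called higher (0.70 ± 0.21, adjusted p = 0.011) at levels of at most 0.424 CPM in every liver library.

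The alpha and mu classes were mixed. Gsta1 was lower in females (-1.90 ± 0.37, adjusted p = 4.6e-04) and Gsta4 higher (0.54 ± 0.16, adjusted p = 0.011). Of the mu class, Gstm2, Gstm4, Gstm5 and Gstm7 were higher in females, with log2 fold changes of 0.26 to 0.50, and Gstm1, Gstm3 and Gstm6 were not called. The call of Gstm4 (0.26 ± 0.10, adjusted p = 0.035) was lost in 13 of the 24 fits that left out 1 library, that of Gstm7 without HFD male 4 or RD male 4 at 12 weeks, and that of Gstt2 without RD female 2 at 2 weeks. On HFD at 2 weeks, Gstm1 (0.85 ± 0.23, adjusted p = 0.019), Gstm2 (0.97 ± 0.22, adjusted p = 0.0057) and Gstm4 (0.69 ± 0.19, adjusted p = 0.023) were higher in females without overlap. Without HFD male 13 neither Gstm1 nor Gstm4 was called; Gstm1 was also lost without HFD female 5, and Gstm4 without HFD female 1 or HFD male 14. The difference of that difference between the diets, the interaction, was not called for them (adjusted p = 0.53, 0.74 and 0.55).

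In the NRF2 system, the factor and its best known target were higher in females while several other targets were lower. Nqo1 ranged from 5.50 to 10.5 CPM (median 9.06) in females and from 1.80 to 5.81 CPM (median 2.98) in males (1.45 ± 0.09, adjusted p = 6.3e-11), and was called on each diet at each time. Nfe2l2 was higher in females by 0.27 ± 0.08 (adjusted p = 0.0093), with overlapping ranges of 39.9 to 78.3 CPM (median 63.6) and 27.0 to 101 CPM (median 53.7). Keap1 (-0.01 ± 0.05, adjusted p = 0.87) and Hmox1 (0.26 ± 0.15, adjusted p = 0.16) were not called. The transporter gene Abcc4 was higher in females (0.71 ± 0.10, adjusted p = 2.0e-05).

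Ugdh was lower in females, at 37.3 to 144 CPM (median 81.3) against 108 to 385 CPM (median 179) in males (-1.20 ± 0.12, adjusted p = 1.3e-07). Gsr, glutathione reductase (-0.46 ± 0.06, adjusted p = 5.4e-06), Txnrd1 (-0.47 ± 0.10, adjusted p = 7.5e-04), Ephx1, microsomal epoxide hydrolase (-0.48 ± 0.11, adjusted p = 0.0014), Gclc (-0.37 ± 0.13, adjusted p = 0.029) and Gclm (-0.21 ± 0.08, adjusted p = 0.046) were lower as well. For Gclc the 12 female libraries spanned 153 to 309 CPM (median 223) and the 12 male libraries 144 to 579.9 CPM (median 294), so the sexes overlapped. For Gclm they spanned 94.6 to 194 CPM (median 156) and 139 to 207 CPM (median 181). The call of Gclm was lost in 14 of the 24 fits that left out 1 library, at adjusted p of 0.0524 to 0.0876. That of Gclc was lost without HFD female 6 at 12 weeks (0.0546), RD female 4 at 2 weeks (0.0509) or HFD male 12 at 2 weeks (0.0541).

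Within diet and time, 6 genes were higher and 6 lower in females on RD at 2 weeks, against 5.37% and 4.45% of all genes (9.81% in either direction). On HFD at 2 weeks the counts were 9 and 6, against 6.33% and 6.06%. At 12 weeks they were 4 and 5 on RD, against 5.63% and 3.18% (8.81% in either direction), and 5 and 9 on HFD, against 9.93% and 7.40%. Gstp1, Gstp2, Gstt3, Mgst1, Mgst3, Nqo1 and Ugdh were called in all 4 contrasts, in the direction given above each time. Of these 7, Ugdh on RD was lost in 5 of the 6 fits without 1 library at 2 weeks and in 4 of 6 at 12 weeks, and at 12 weeks on RD Gstp2 was lost in 4, Gstt3 in 2 and Mgst3 in 1. On HFD at 12 weeks, Srxn1 (-1.08 ± 0.31) and Gclc (-0.88 ± 0.26) were called with overlapping groups, and HFD male 4 was the high library; without it 9 genes were called in place of 14, and neither Srxn1 nor Gclc was among them. Both were lost without HFD female 3 or HFD female 6 as well. A fit of these 2 groups alone called 9 as well. Without RD male 4 the count on RD at 12 weeks was 4 in place of 9, and without RD female 4 or RD male 8 that on RD at 2 weeks was 7 in place of 12.

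The sum of 10 macrophage and Kupffer cell markers in liver moved with sex, at 395 to 677 CPM in RD females and 257 to 299.5 CPM in RD males at 12 weeks, and at 439 to 525 CPM and 89.9 to 174 CPM on HFD. At 2 weeks the sum was 473 to 503 and 363 to 402 CPM on RD, and overlapped on HFD. The sum of 6 fibroblast and stellate cell markers was 349.5 to 359 CPM in females and 227 to 245 CPM in males on RD at 2 weeks, 325 to 372 and 212 to 264 CPM on RD at 12 weeks and 277 to 353 and 151 to 259 CPM on HFD at 12 weeks, again overlapping on HFD at 2 weeks. The sum of 6 endothelial markers was 178 to 235 CPM in females and 64.5 to 109 CPM in males on HFD at 12 weeks. The hepatocyte sum was 114749.5 to 133601 CPM in females and 73802 to 82272 CPM in males on HFD at 2 weeks. In the averaged contrast 8 of the 10 macrophage, 4 of 6 fibroblast, 5 of 6 endothelial and 1 of 8 hepatocyte markers were higher in females, and 4 hepatocyte markers were lower. The part of these markers' cells in the sex differences above was not tested. Of the 45 further pathway genes, 11 were higher and 11 lower in females in the averaged contrast. Ephx2, soluble epoxide hydrolase (-0.74 ± 0.07, adjusted p = 1.4e-07), and the glucuronosyltransferase Ugt1a6b (-0.63 ± 0.06, adjusted p = 2.2e-07) were lower, and the carbonyl reductase Cbr1 (0.96 ± 0.10, adjusted p = 5.1e-07) was higher.

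The same question was asked of visceral fat, where 35 of the 36 genes were tested (Gsta1 was too low). Averaged over both sexes and times, 9 genes fell on HFD, all of them transferases, and 4 rose, all of the NRF2 system. The background was high at 28.2%, with 13.4% of all 18325 genes tested lower and 14.8% higher. The median log2 fold change was -0.29 over the 35 genes and -0.01 over all genes. The genes that fell were Gsta3, Gsta4, Gstm2, Gstm5, Gstp1, Gstt1, Gstt3, Mgst1 and Mgst2, and those that rose were Hmox1, Ephx1, Abcc4 and Nfe2l2. The call of Gstm2 (-0.49 ± 0.17, adjusted p = 0.035) was lost in 13 of the 24 fits that left out 1 library and that of Gstt3 without RD male 6 at 2 weeks; the other 11 held in each. Over the transferases the log2 fold changes ranged from -1.89 to 0.80 (median -0.48), and over the NRF2 system from -0.35 to 0.96 (median 0.06).

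**Figure D3:**
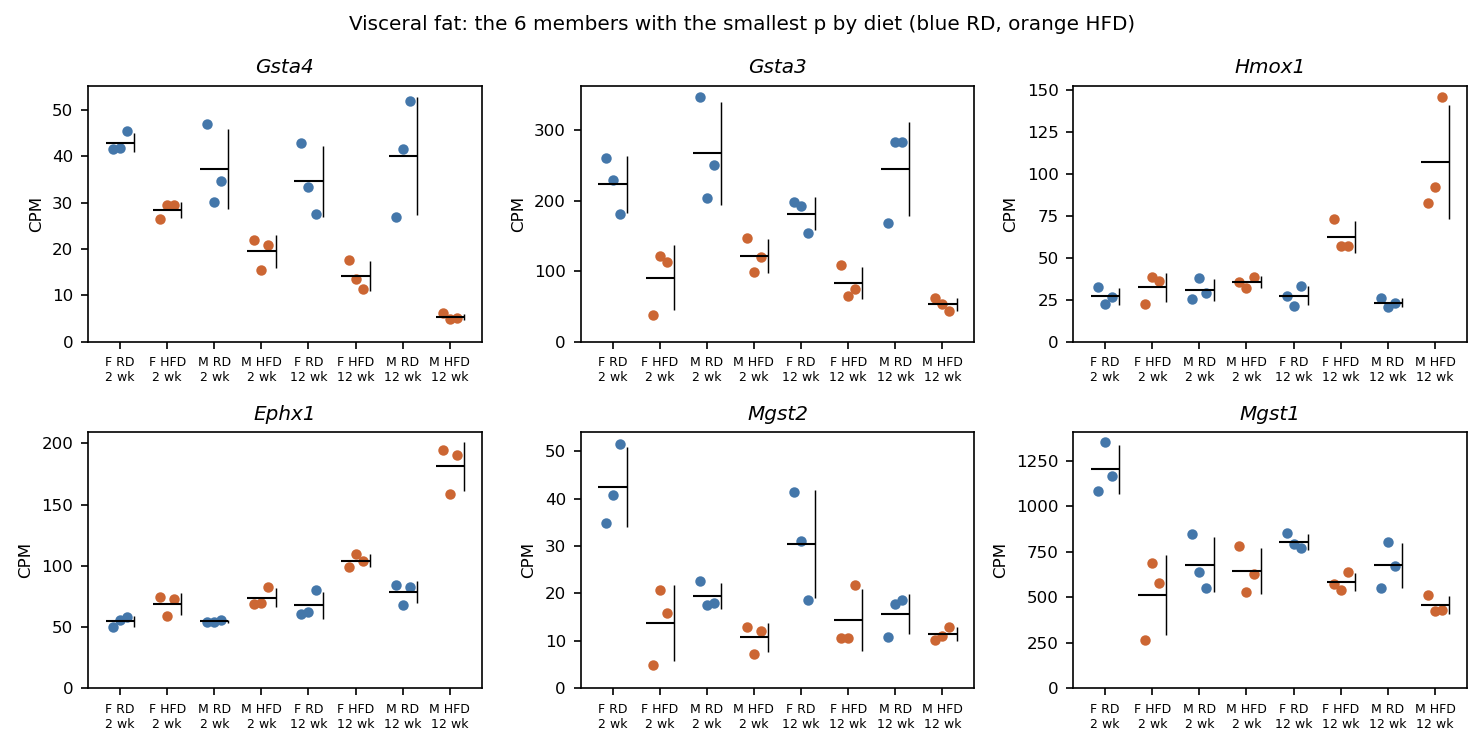
CPM in visceral fat of the 6 genes with the smallest p for diet, by group (x axis; F and M, RD blue, HFD orange, 2 and 12 weeks); points are libraries, horizontal lines means and vertical lines 1 SD (n = 3). Gsta4 and Gsta3 lie lower in every HFD group than in the RD group beside it, and the HFD males at 12 weeks hold the highest levels of Hmox1 and Ephx1.

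Gsta4, the 4-hydroxynonenal enzyme, had the smallest p. At 2 weeks it stood at 41.6, 41.8 and 45.3 CPM in RD females and 26.5, 29.5 and 29.4 CPM in HFD females, and at 46.9, 30.1 and 34.7 CPM in RD males and 22.0, 15.5 and 20.9 CPM in HFD males. At 12 weeks it stood at 42.8, 33.3 and 27.6 CPM in RD females and 17.7, 13.5 and 11.4 CPM in HFD females. The males at 12 weeks stood at 26.8, 41.4 and 52.0 CPM on RD and 6.12, 5.00 and 5.10 CPM on HFD. The diets did not overlap in any of the 4 pairs of groups. The averaged change was -1.42 ± 0.12 (adjusted p = 1.1e-06). At 12 weeks it fell in females (-1.28 ± 0.23, adjusted p = 0.0063) and in males (-2.89 ± 0.24, adjusted p = 7.8e-07), while at 2 weeks neither -0.59 ± 0.23 in females (adjusted p = 0.15) nor -0.94 ± 0.23 in males (adjusted p = 0.3) was called.

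Gsta3, another alpha class enzyme, fell in the averaged contrast and in males at 12 weeks. It stood at 198, 192 and 154 CPM in RD females and 109, 65.0 and 75.1 CPM in HFD females at 12 weeks, and at 168, 284 and 283 CPM and 61.7, 53.8 and 43.5 CPM in males. The diets did not overlap in either sex. The averaged change was -1.44 ± 0.17 (adjusted p = 2.5e-05), and that in males at 12 weeks -2.21 ± 0.35 (adjusted p = 3.3e-04). In females at 12 weeks -1.13 ± 0.34 was not called (adjusted p = 0.11). At 2 weeks the diets did not overlap in either sex, but neither -1.30 ± 0.34 in females (adjusted p = 0.083) nor -1.13 ± 0.34 in males (adjusted p = 0.36) was called.

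The membrane-bound transferases Mgst1 and Mgst2 fell in the averaged contrast. Mgst1 ranged from 552 to 1352 CPM (median 798) in the 12 RD libraries and from 268 to 781 CPM (median 557) in the 12 HFD libraries, with overlap (-0.58 ± 0.13, adjusted p = 0.0034). Mgst2 ranged from 10.9 to 51.6 CPM (median 20.6) and from 4.94 to 21.9 CPM (median 11.5), a log2 fold change of -1.01 ± 0.21 (adjusted p = 0.0021). In neither gene was the change called within a sex and time. The lowest of the 24 libraries for Gsta3, Mgst1 and Mgst2 was HFD female 1 at 2 weeks, the library with high Cdh1. Gsto1, omega class, was not called by diet (0.80 ± 0.33, adjusted p = 0.077); at 12 weeks it stood at 48.2, 46.8 and 32.0 CPM in RD females and 66.6, 67.8 and 84.9 CPM in HFD females, and at 2 weeks HFD female 1 held 763 CPM against 48.7 and 43.5 CPM in its group.

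Heme oxygenase 1, which breaks down heme and is abundant in macrophages, rose most among the NRF2 genes. At 2 weeks Hmox1 overlapped between the diets in both sexes. At 12 weeks it stood at 27.5, 21.6 and 33.0 CPM in RD females and 73.3, 56.8 and 57.1 CPM in HFD females, a change of 1.19 ± 0.24 (adjusted p = 0.013). In males it stood at 26.2, 20.9 and 23.0 CPM on RD and 82.9, 92.5 and 146 CPM on HFD, a change of 2.20 ± 0.24 (adjusted p = 8.9e-06). The diets did not overlap in either sex at 12 weeks. The call in females was lost without HFD female 3 (adjusted p = 0.0586), RD female 5 (0.0729) or RD female 7 (0.0721).

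Ephx1, which opens epoxides, stood at 60.4, 62.3 and 80.5 CPM in RD females and 98.7, 109 and 104 CPM in HFD females at 12 weeks, a change of 0.62 ± 0.13 (adjusted p = 0.02). In males it stood at 84.2, 67.9 and 82.8 CPM and 195, 158 and 191 CPM, a change of 1.21 ± 0.14 (adjusted p = 9.4e-06). Again the diets did not overlap in either sex. Nfe2l2 rose by 0.34 ± 0.10 (adjusted p = 0.015) in the averaged contrast and by 0.63 ± 0.20 (adjusted p = 0.025) in males at 12 weeks, from 85.8, 69.1 and 63.6 CPM on RD to 100.3, 98.5 and 139 CPM on HFD. Abcc4, an exporter of conjugates, rose by 0.68 ± 0.16 (adjusted p = 0.0042) and by 1.11 ± 0.31 (adjusted p = 0.016). In males at 12 weeks both calls were lost without HFD male 4, RD male 3 or RD male 4, where Nfe2l2 had adjusted p of 0.133, 0.075 and 0.101 and a change of 0.46 without the first. HFD male 4 was above both other libraries of its group for 9 of the 14 genes of the NRF2 system, and for Bach1, a repressor that competes with NRF2, it held 266 CPM against 61.3 and 64.2 CPM. In visceral fat at 2 weeks, RD female 4 and HFD male 13 were also above their groups for 9 of the 14 each. In fits of the compared groups alone, Ephx1 in females had an adjusted p of 0.0524 and Nfe2l2 in males of 0.0807. Ephx1 in females was also lost without HFD female 6 or 7 or RD female 5 or 7, at adjusted p of 0.0718 to 0.131. The targets Gclc (-0.18 ± 0.07, adjusted p = 0.063), Gclm (-0.35 ± 0.14, adjusted p = 0.062) and Nqo1 (-0.23 ± 0.19, adjusted p = 0.39) and the inhibitor Keap1 (-0.02 ± 0.06, adjusted p = 0.87) were not called by diet in the averaged contrast. DESeq2 called Gclc (adjusted p = 0.042) and Gclm (0.043) as lower. Without HFD male 13 at 2 weeks, the library with the most Crisp1, 3 of the 4 were called as lower: Gclc (-0.23, adjusted p = 0.0156), Gclm (-0.44, 0.0155) and Nqo1 (-0.51, 8.1e-04). Gclc was also called without RD female 8 at 12 weeks or RD female 2 at 2 weeks, and Gclm without RD female 8 at 12 weeks or RD male 7 at 2 weeks.

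Marker levels moved with the same contrast. The sum of 10 macrophage markers at 12 weeks was 743 to 1376 CPM in RD females, 1339 to 1660.2 CPM in HFD females, 806 to 948 CPM in RD males and 2497 to 3442 CPM in HFD males. In the averaged diet contrast 7 of the 10 macrophage, 4 of 6 endothelial and 3 of 6 fibroblast markers rose and none of these fell, while 1 of 8 adipocyte markers rose and 1 fell. In males at 12 weeks 6 of the 10 macrophage markers rose, 6 of 8 epithelial markers fell and 3 of 11 epididymis markers fell. The part of these cells in the rise of Hmox1, Ephx1 and Nfe2l2 or the fall of the transferases was not tested.

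By sex and time, males at 12 weeks accounted for most single calls. In them 13 of the 35 genes fell, against 15.0% of all genes, and 4 rose, against 13.2%. The median log2 fold change was -0.57 over the 35 genes and -0.11 over all genes. In females at 12 weeks 2 rose (Hmox1, Ephx1), against 1.30% of all genes, and Gsta4 fell, against 0.775%; without RD female 5 none was called and without RD female 7 only 1. At 2 weeks none was called in females, with 0.235% of all genes called, 12 of the 35 at an unadjusted p under 0.05 and 5 called by DESeq2. None was called in males at 2 weeks either, with 0% of all genes called, 5 at an unadjusted p under 0.05 and 1 called by DESeq2. The share of all genes at that unadjusted threshold is not given here, so the 12 and the 5 have no background to be read against.

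Several of the 13 genes that fell in males at 12 weeks were high in the RD males of that age, all of them rich in Crisp1. Gstm7 stood at 152, 217 and 41.1 CPM in RD males and 6.97, 5.10 and 4.64 CPM in HFD males (-4.61 ± 1.03, adjusted p = 0.0042). Gstm5 stood at 71.1, 196 and 167 CPM and 16.0, 17.1 and 15.5 CPM, a log2 fold change of -3.16 ± 0.58 (adjusted p = 0.001), and Gstm6 at 46.2, 64.1 and 16.5 CPM and 10.2, 5.81 and 5.69 CPM, a log2 fold change of -2.55 ± 0.83 (adjusted p = 0.03). Nqo1 stood at 17.1, 17.2 and 14.0 CPM and 4.05, 3.75 and 3.56 CPM, a log2 fold change of -2.09 ± 0.40 (adjusted p = 0.0014). The diets did not overlap for these genes. Gsta2 stood at 1.88, 0.752 and 20.0 CPM in RD males and at 0.0126, 0 and 0 CPM in HFD males, too low there for a fold change. Every RD male at 12 weeks carried at least 3022 CPM of Crisp1 and no HFD male over 6.30 CPM, so diet and this RNA cannot be told apart in these males. At 2 weeks the levels are given by male, and whether they follow Crisp1, 1 of 11 epididymis markers, was not tested. The sum of the 11 ran from 2.88 to 9393 CPM in RD males and from 5.57 to 8474 CPM in HFD males. RD male 8, with 2682 CPM of Crisp1, held 10.6 CPM of Gstm7, 5.47 CPM of Gstm6, 35.3 CPM of Gstm5 and 7.50 CPM of Nqo1. RD male 7, with 0.586 CPM of Crisp1, held 28.9 CPM of Gstm7 and 67.4 CPM of Gstm5, and HFD male 14, with 6.29 CPM, held 63.1 and 136 CPM.

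The 12-week male libraries of visceral fat share numbers 2, 3 and 4 across the diets. Same-numbered libraries correlated weakly in their deviations from the group means (r of 0.108, 0.134 and 0.154), and differently numbered ones had r of -0.113 to 0.0155. In other groups differently numbered libraries reached larger values. These were 0.265 for HFD female 5 and RD female 4 in visceral fat at 2 weeks and 0.169 for HFD male 2 and RD male 3 in liver at 12 weeks. With the number as a replicate block, 14 of the 35 genes were called in males at 12 weeks in place of 17: Gstm4, Gstm6 and Cbr3 were lost. The averaged diet contrast kept its count of 13 under the block, losing Gstm2 and Gstt3 and gaining Gstk1 and Gstz1. Without HFD male 4 or without RD male 4, 11 genes were called in males at 12 weeks. Without the 3 Crisp1-rich libraries at 2 weeks, 13 genes were called in the averaged contrast, with Gstt3 and Nfe2l2 lost and Gstm7 and Nqo1 gained.

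Of the 46 further pathway genes tested in visceral fat, 6 rose and 13 fell in the averaged diet contrast, with a median log2 fold change of -0.04. Those with the smallest p were Tkt, a transketolase of the pentose phosphate pathway (-1.98 ± 0.29, adjusted p = 1.4e-04), Me1 (-1.76 ± 0.31, adjusted p = 7.3e-04) and the mitochondrial glutaredoxin Glrx2 (-0.53 ± 0.09, adjusted p = 6.6e-04), all of which fell. In males at 12 weeks 7 rose and 7 fell. Hpgds, the hematopoietic prostaglandin D synthase of the sigma class (2.85 ± 0.48, adjusted p = 5.3e-04), and the aldo-keto reductase Akr1b8 (1.40 ± 0.24, adjusted p = 7.0e-04) rose, and Gpx3, the secreted glutathione peroxidase, fell (-2.55 ± 0.47, adjusted p = 0.0011). In females Tkt fell at 12 weeks (-2.60 ± 0.59, adjusted p = 0.025) and Glrx, the cytosolic glutaredoxin, at 2 weeks (-1.46 ± 0.26, adjusted p = 0.032). Each was the list's single call in its contrast; at 12 weeks none of the list was called in 5 of the 6 fits that left out 1 library, and at 2 weeks none in 4 of 6.

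Between the sexes, 2 of the 35 genes were higher and 10 lower in female visceral fat in the averaged contrast, with 11.2% of all genes higher and 13.3% lower. The median log2 fold change, F over M, was -0.29 over the 35 genes and -0.01 over all genes. The 2 higher were Gsta4 (0.48 ± 0.11, adjusted p = 0.0046) and Mgst2 (0.69 ± 0.21, adjusted p = 0.018). The lower ones were Gstm1, Gstm5, Gstm6, Gstm7, Gstt3, Nqo1, Srxn1, Txnrd1, Gclc and Ephx1. The call of Gstm5 (-0.76 ± 0.27, adjusted p = 0.045) was lost in 18 of the 24 fits that left out 1 library and that of Txnrd1 (-0.39 ± 0.13, adjusted p = 0.033) in 6; the other 10 held in each.

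**Figure D4:**
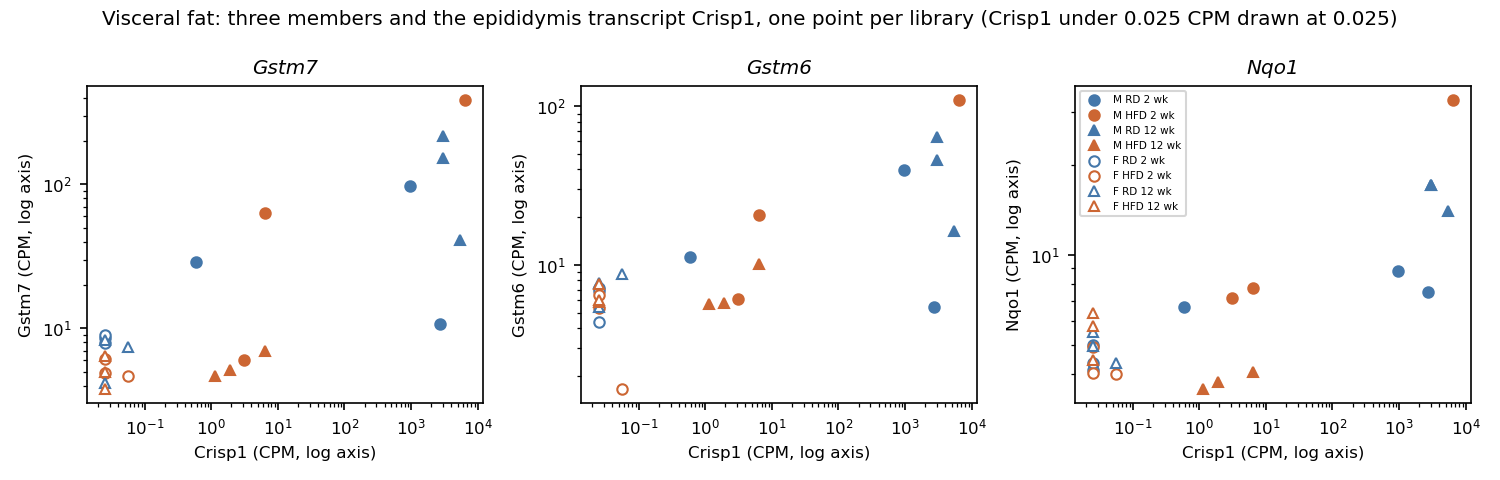
CPM of Gstm7, Gstm6 and Nqo1 (y axes, log scale) against CPM of Crisp1, an epididymis gene (x axis, log scale), in the 24 visceral fat libraries; points are libraries, marked by sex, diet and weeks. The 4 libraries with 14.0 CPM or more of Nqo1 are males with 3022 CPM or more of Crisp1, and a male with 2682 CPM held 7.50 CPM. The relation was not tested.

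Gstm7 and Gstm6 had the largest of these differences. Gstm7 ranged from 3.79 to 8.95 CPM (median 6.27) in the 12 female libraries and from 4.64 to 383 CPM (median 35.0) in the 12 male libraries (-2.94 ± 0.48, adjusted p = 2.6e-04). Gstm6 ranged from 1.66 to 8.79 CPM (median 6.25) in females and from 5.47 to 109 CPM (median 13.9) in males (-1.91 ± 0.41, adjusted p = 0.0022). In HFD males at 12 weeks, whose Crisp1 was at most 6.30 CPM, Gstm7 stood at 6.97, 5.10 and 4.64 CPM and the HFD females at 4.94, 6.40 and 3.79 CPM, with overlap (-0.14 ± 0.90, adjusted p = 0.98). At 2 weeks HFD male 13 held 383 CPM of Gstm7 and 6500.1 CPM of Crisp1, and HFD male 14 held 63.1 CPM and 6.29 CPM. HFD male 12 held 6.06 CPM of Gstm7. Whether Gstm7 follows Crisp1 was not tested.

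Nqo1 was lower in female than in male visceral fat in the averaged contrast (-0.95 ± 0.19, adjusted p = 0.0015) and higher in female liver, a difference between tissues that was not tested. In RD animals at 12 weeks it stood at 4.97, 4.36 and 5.53 CPM in females and 17.1, 17.2 and 14.0 CPM in males, a difference of -1.70 ± 0.39 (adjusted p = 0.015). In HFD animals at 12 weeks it stood at 6.39, 5.78 and 4.44 CPM in females and 4.05, 3.75 and 3.56 CPM in males, so that each female was above each male, but 0.55 ± 0.38 was not called (adjusted p = 0.6). Gclc was lower in females (-0.33 ± 0.07, adjusted p = 0.0025), at 24.7 to 37.7 CPM (median 28.0) against 29.7 to 46.5 CPM (median 37.4) in males. Gstm1 (-0.43 ± 0.09, adjusted p = 0.0021) and Ephx1 (-0.28 ± 0.07, adjusted p = 0.0054) were lower too.

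Leaving out the 3 male libraries at 2 weeks with over 100 CPM of Crisp1 left 7 calls in place of 12 in the averaged sex contrast: Gsta4 higher and Gstm1, Gstm6, Gstm7, Nqo1, Gclc and Ephx1 lower. The RD males at 12 weeks all carry this RNA and could not be left out. The epididymis markers moved with sex as well, 6 of the 11 being lower in females, and their part in these differences beyond the libraries left out was not tested. Keap1, Gclm, Hmox1 and Nfe2l2 were not called by sex in the averaged contrast, with log2 fold changes of 0.12, -0.29, -0.22 and -0.12.

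Within diet and time, 1 gene was higher and 4 lower in females on HFD at 2 weeks, against 2.00% and 1.80% of all genes. The higher one was Gsto1 (2.75 ± 0.70, adjusted p = 0.036), which rests on HFD female 1, the library with high Cdh1. A fit of these 2 groups alone called none (adjusted p of 0.464 for Gsto1). Without that library 2 genes were called, and without HFD male 13, or without all 3 Crisp1-rich libraries, 1. On RD at 12 weeks none was higher and 5 were lower, against 4.45% and 6.16%: Gstm7, Gstm5, Nqo1, Cbr3 and Gstt3. Leaving out 1 library gave 0 without RD female 5 or 7, 1 without RD female 8, 2 without RD male 3 or 4 and 11 without RD male 2. The count over all genes moved too, from 1943 to 438 without RD female 8, the lowest, and to 4520 without RD male 2, the highest. On HFD at 12 weeks, where no male library was rich in Crisp1, Gsta4 was higher in females (17.7, 13.5 and 11.4 CPM against 6.12, 5.00 and 5.10 CPM in males, 1.39 ± 0.23, adjusted p = 0.002) and Ephx1 lower (-0.80 ± 0.13, adjusted p = 0.0021), against 1.04% and 1.81% of all genes. On RD at 2 weeks none was called (4.28% of all genes, 1.94% as higher, 5 of the 35 at an unadjusted p under 0.05, 4 by DESeq2).

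Among the 46 further pathway genes, 5 were higher and 7 lower in females in the averaged contrast. Ggt1, the gamma-glutamyltransferase that breaks down extracellular glutathione (-4.41 ± 0.76, adjusted p = 4.3e-04), the retinaldehyde dehydrogenase Aldh1a1 (-1.53 ± 0.32, adjusted p = 0.0018) and the small MAF gene Mafk (-0.56 ± 0.12, adjusted p = 0.002) were lower.

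The last comparison was whether the sexes differed in their diet response in visceral fat. At 12 weeks the sex by diet interaction was called for 3 of the 35 genes, all with a higher HFD to RD ratio in females, against 0.295% of all genes in that direction and 0.955% in the other. Gsta4 fell less in females than in males, with a difference of 1.61 ± 0.32 (adjusted p = 0.02) on the log2 scale. Gstt3 stood at 15.5, 11.3 and 17.1 CPM in RD females, 14.0, 13.5 and 16.4 CPM in HFD females, 28.9, 34.7 and 32.2 CPM in RD males and 9.93, 10.8 and 6.15 CPM in HFD males, with the diets apart in males and overlapping in females. Its diet change was -0.003 ± 0.29 in females and -1.83 ± 0.30 in males, a difference of 1.83 ± 0.41 (adjusted p = 0.036). For Nqo1 it was 0.16 ± 0.38 and -2.09 ± 0.40, a difference of 2.25 ± 0.55 (adjusted p = 0.0497). With the replicate block in males the adjusted p was 0.0718 for Gsta4, 0.0741 for Gstt3 and 0.119 for Nqo1, so none was called. Without a filter on low counts it was 0.0595 for Nqo1. Without HFD female 3, RD female 8, HFD male 4, RD male 3 or RD male 4 none was called either, and without HFD female 6 or 7, RD female 5 or 7 or HFD male 2 only 1 was. The RD males of this comparison held at least 3022 CPM of Crisp1 and the HFD males at most 6.30 CPM. At 2 weeks none of the 35 was called (0% of all genes, 5 of the 35 at an unadjusted p under 0.05, 1 by DESeq2).

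**Figure D5:**
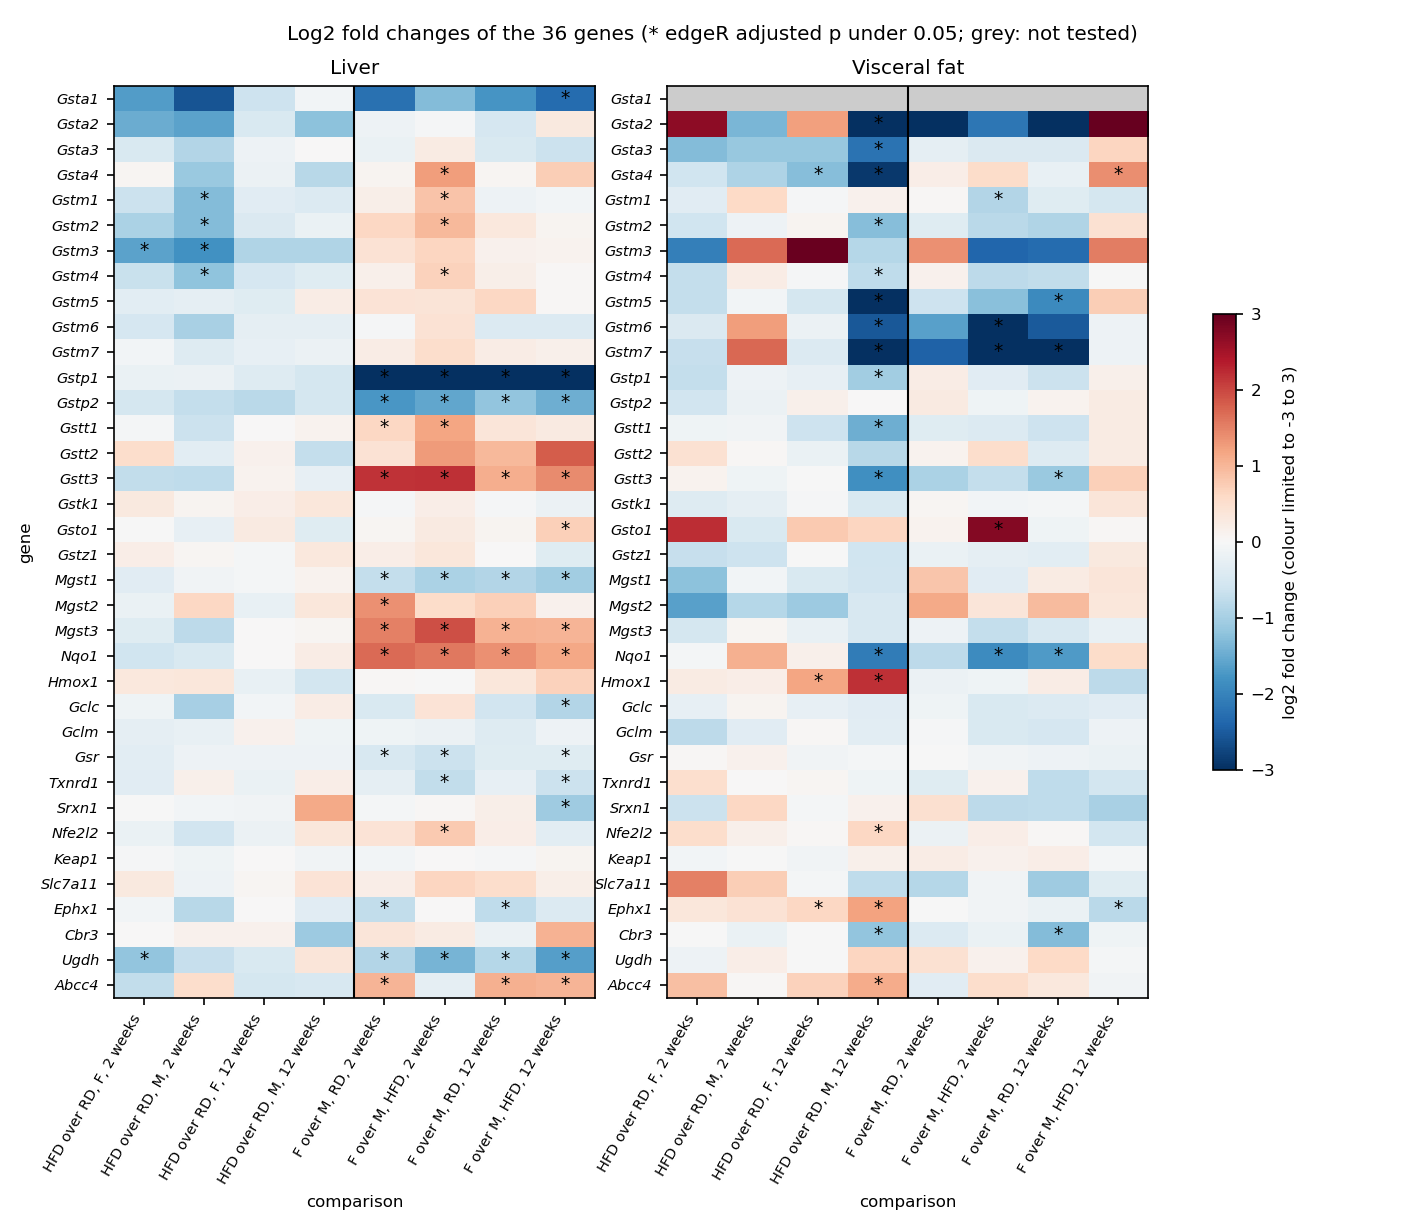
log2 fold change (colour, limited to -3 to 3) of the 36 genes (rows) in the 4 diet contrasts (HFD over RD) and 4 sex contrasts (F over M) of each tissue (columns); asterisks mark an adjusted p under 0.05 (edgeR) and grey marks a gene that was not tested. In liver the called diet cells are the 4 mu class genes and Ugdh at 2 weeks, and in visceral fat most called diet cells are in males at 12 weeks.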

How the data were processed

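PolyA RNA of 48 libraries, 24 from liver and 24 from visceral fat, gave expected counts per gene symbol, deposited by the authors in 1 table; they are not whole numbers, since only 0.0936% of the nonzero values are whole within 1e-06. Tools named in the submitters' processing notes are edgeR, DESeq2 and kallisto, and the build is GRCm38; no version or role is stated there. The step from transcripts to gene symbols is not given in the sources used. No pair of the 48 replicate pairs was identical, and the lowest chi-square per degree of freedom was 45.3.

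After rounding, a separate fit was made for each tissue over its 8 groups (R 4.3.3, edgeR 4.0.16 with limma 3.58.1: filterByExpr, TMM, robust quasi-likelihood F test), with 12 contrasts per tissue and Benjamini-Hochberg adjustment over all genes tested within each contrast. The filter kept 15897 genes in liver and 18325 in visceral fat. The SE of a log2 fold change was taken as its size over the root of F and is approximate. Where 1 library was left out, the remaining 2 of a group were fitted with the spread pooled over all groups. Alternatives were DESeq2 1.42.0, median-of-ratios scaling, no filter, the compared groups alone, dispersions without the robust option, the replicate number as a block, each library left out, and 3 male fat libraries rich in Crisp1 left out. The method was tested on simulated data. Same-numbered libraries correlated weakly in visceral fat males at 12 weeks (r of 0.108, 0.134 and 0.154), and some differently numbered libraries of other groups reached larger r. The labels do not say what the number marks.

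The 36 genes and the lists were chosen with earlier results of these data known. Of 142 list symbols 140 were found. Named in each contrast were the called genes with the smallest p (of the 36, up to 6 in the averaged contrasts and 4 in the others, and 3 of the pathway list), together with Nfe2l2, Keap1, Nqo1, Gclc, Gclm and Hmox1; others were named from their group counts after their values were seen. Shared 31-base stretches were counted in GENCODE M21 transcripts (GRCm38) and promoters come from RefSeq (GRCm38.p6), with Python 3.11.15. Gsta4, Gstt2, Hmox1, Gclc and Gsr have no entry in the promoter table. Protein sequences were not analysed here.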

Additional observations from a re-analysis of the deposited data

Results flagged for a closer look

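For 3 genes the diet effect in visceral fat at 12 weeks differed between the sexes by the test of the interaction (edgeR, Benjamini-Hochberg adjusted over all genes). The female minus male difference of the log2 fold change was 1.61 for Gsta4 (adjusted p = 0.02), 1.83 for Gstt3 (adjusted p = 0.036) and 2.25 for Nqo1 (adjusted p = 0.0497). None of the 3 was called with the replicate block. The RD males held 3050.1, 3022 and 5453 CPM of Crisp1 and the HFD males 6.30, 1.89 and 1.14 CPM, so diet and epididymal RNA cannot be told apart in the males of the comparison.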

How the results depend on the processing

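Counts of called genes among the 36 were recomputed under other settings, and of 132 such counts 106 stayed within 1.5 times the reported ones. No named gene changed sign under any setting where its change was called. DESeq2 gave 12 (6 in edgeR) for the averaged diet contrast in liver, 5 (2) in females and 13 (4) in males at 2 weeks, 1 (0) in males at 12 weeks and 1 (0) for the 2-week interaction. In visceral fat it gave 5 (0) in females and 1 (0) in males for diet at 2 weeks, 4 (0) for sex on RD at 2 weeks, 12 (5) on RD and 5 (2) on HFD at 12 weeks, and 1 (0) and 8 (3) for the interaction at 2 and 12 weeks. A fit of the compared groups alone gave 0 (2) and 2 (4) for diet at 2 weeks in liver females and males, 7 (15) and 9 (14) for sex on HFD at 2 and 12 weeks in liver, 1 (0) and 0 (5) for sex on RD and HFD at 2 weeks in visceral fat, 6 (2) on HFD at 12 weeks and 8 (3) for the 12-week interaction. Without a filter on low counts, 1 (2) was called for diet in liver females at 2 weeks, and median-of-ratios scaling gave 1 (0) in visceral fat females at 2 weeks. Without the 3 male libraries rich in Crisp1 the averaged sex contrast gave 7 (12) and sex on HFD at 2 weeks 1 (5). The other settings (median-of-ratios scaling or no filter elsewhere, and dispersions without the robust option) stayed within 1.5 times. The cause of these moves was not tested.

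The replicate block gave 10 (6) for the averaged diet contrast in liver and 0 (3) for the 12-week interaction in visceral fat. Numbers 1 and 2 of the females at 2 weeks had r of -1.5e-05 and -0.049 in liver and 0.119 and -0.0999 in visceral fat. Same-numbered liver males at 12 weeks had r of -0.112, 0.05 and 0.127. What the number marks in these animals is not known from the labels. With that block Ugdh in liver females at 2 weeks had an edgeR adjusted p of 0.0524. In the visceral fat males at 12 weeks each library correlated best with its own number. The other blocked counts, 14 (17) in those males among them, were within 1.5 times.

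Leaving out 1 library at a time gave these ranges of counts in liver: 4 to 13 for diet averaged, 0 to 3 and 1 to 5 for diet at 2 weeks in females and males, 0 and 0 to 1 at 12 weeks, 21 to 26 for sex averaged, 7 to 9 and 12 to 16 for sex on RD and HFD at 2 weeks, 4 to 8 and 9 to 14 at 12 weeks, and 0 and 0 for the interaction at 2 and 12 weeks. In visceral fat they were 11 to 19 for diet averaged, 0 to 4 and 0 for diet at 2 weeks in females and males, 0 to 3 and 11 to 18 at 12 weeks, 10 to 15 for sex averaged, 0 and 1 to 6 for sex on RD and HFD at 2 weeks, 0 to 11 and 2 at 12 weeks, and 0 and 0 to 4 for the interaction at 2 and 12 weeks. In visceral fat females at 2 weeks the diet count was 4 without HFD female 2 and 3 without HFD female 5. Without HFD female 2 the count over all genes went from 43 to 1212.

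Over all genes, DESeq2 called 634 (213 in edgeR) for the averaged diet contrast in liver, 181 (40) and 321 (54) in females and males at 2 weeks, and 17 (1) and 451 (178) at 12 weeks. In visceral fat it called 1510 (43) and 130 (0) for diet in females and males at 2 weeks, 1002 (381) in females at 12 weeks and 1335 (229) for the 12-week interaction. For sex in visceral fat it called 1986 (785) on RD at 2 weeks, and 3857 (1943) on RD and 1174 (522) on HFD at 12 weeks. For the 2-week interaction it called 129 (0) in liver and 81 (0) in visceral fat. The block called 78 (229) for the 12-week interaction in visceral fat and 246 (213) for the averaged diet contrast in liver. Groups alone called 0 (178) for diet in liver males at 12 weeks, 0 (43) in visceral fat females at 2 weeks and 28 (696) for sex on HFD at 2 weeks in visceral fat. In liver they called 0 (40) and 32 (54) for diet at 2 weeks in females and males. For sex on HFD in liver they called 674 (1971) at 2 weeks and 1135 (2756) at 12 weeks. In visceral fat they called 549 (785) for sex on RD at 2 weeks, 1167 (522) on HFD at 12 weeks and 941 (229) for the 12-week interaction. Without the libraries rich in Crisp1, 2334 (5174) were called for diet and 2579 (4498) for sex in the averaged contrasts of visceral fat, and 269 (696) for sex on HFD at 2 weeks. For diet in females at 2 weeks, 25 (40) were called in liver without a filter and 64 (43) in visceral fat with median-of-ratios scaling. Genes at low counts, such as Gsta2 in visceral fat and Mgst2 in liver, are limited by depth.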
